A study of Homo sapiens with 6 samples.

Results

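Chromosome 8 was followed gene by gene in A673 cells, an established Ewing sarcoma cell line, as the part of the array experiment made up of genes lying on that chromosome. A gene was taken in when at least 1 of its probes was flagged well above background on 3 or more of the 6 arrays and the accession of that probe belonged to a transcript of chromosome 8. Of 16601 named genes with such a probe, 559 lay on chromosome 8, and 512 remained after 47 had been left out by symbol, among them MYC and the ADAM, RPL and RPS families. These 512 genes, 185 on the short arm and 327 on the long arm, were taken in by detection flags and by position. The chromosome itself was chosen with earlier results of these data known, so its comparisons with all genes are descriptions. Protein-coding genes made up 472 of the 512.

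A673/TR cells carry the tetracycline repressor, A673/TR/empty cells carry in addition a lentiviral vector without an insert and served as control, and A673/TR/LOX-PP cells carry the same kind of vector with a cDNA for the propeptide of lysyl oxidase, the part that is cut off when this extracellular enzyme matures. The labels give doxycycline at 1 µM for 72 h for all 6 samples, whereas the methods name the drug for this experiment clearly only for the LOX-PP cells, so whether the control cells received it was not settled. Each group held 3 arrays described as separate experiments. The cells were stably selected, the clone or population used for the arrays was not named, and an effect of the propeptide and a difference between the selected populations cannot be told apart in this design. The comparison asks which genes differ between LOX-PP cells given doxycycline and the control cells. No array held LOX-PP cells without the drug.

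All 10 Ewing sarcoma markers examined, among them CD99, the surface antigen used in diagnosis, and NR0B1, a known target of the EWS/FLI1 fusion, were well above background on all 6 arrays. Of 9 markers of blood, endothelial and epithelial cells, 6 were also flagged on all arrays, at dim levels, and CDH1 and KRT5 were flagged on none. The LOX probe read 0.13 ± 0.22 on the control arrays and -0.70 ± 0.58 on the LOX-PP arrays (log2, SD, n = 3 each, limma adjusted p = 0.217), and where this probe lies relative to the propeptide cDNA was not given, so it does not check the construct. Between 56.9% and 74.8% of the spots of an array were flagged. LOX-PP array 1 lay on another slide than the other 5, and its part in the results is given by the values without it.

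Chromosome 8 carries more than any single pathway. Its short arm holds a defensin cluster and several genes studied as candidate tumor suppressors, and its long arm holds regulators of transcription, subunits of translation initiation factors, secreted growth factors such as ANGPT1 and RSPO2 and, towards the end, a run of zinc finger genes. An additional chromosome 8 is a frequent secondary chromosome change in Ewing sarcoma. The arrays measured RNA, and the number of chromosome copies in these cells was not measured.

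Levels are log2 signals relative to the 75th percentile of the array and were compared only within 1 probe. The brightest probe stood for its gene. A change is the mean of the LOX-PP arrays minus the mean of the control arrays, given relative to the median change of all 16601 genes, which was 0.03 on the log2 scale. Adjusted p-values are those of limma with Benjamini-Hochberg adjustment over all probes tested, for the difference before this centring. Where a fold is given as at least a value, the adjusted p beside it tests the readings, not that bound.

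Chromosome 8 genes were lower on the LOX-PP arrays more often than other genes. The median change of the 512 genes was -0.34, with quartiles of -0.78 and 0.11, and 352 of them, or 68.8%, lay below the median of all genes. The chromosome's median deviation from the gene means was 0.18, 0.22 and 0.16 in the control group and -0.22, -0.13 and -0.14 in the LOX-PP group. All 3 control arrays thus lay above all 3 LOX-PP arrays, with a gap of 0.30. Among the 23 chromosomes compared (the autosomes and X), chromosome 8 had the second lowest median, after chromosome 13 at -0.73, and chromosome 4 came next at -0.19.

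Of the 512 genes, 54 fell and 14 rose past an adjusted p of 0.05. Over all genes 3.37% fell and 3.7% rose past this threshold, against 10.5% and 2.73% of the chromosome 8 genes. The 3 LOX-PP values lay below all 3 control values for 194 members, or 37.9%, and above them for 41, or 8.01%, where the shares over all genes were 18.2% and 15.4%. The count of 68 called genes depended on single arrays. Without control array 1 it was 13, without control array 2 it was 10 and without control array 3 it was 38, while it was 61 without LOX-PP array 1, 31 without LOX-PP array 2 and 34 without LOX-PP array 3. The median change varied less in these runs, between -0.37 and -0.29.

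The lower values were not spread evenly along the chromosome. When each arm was read in blocks of 25 neighbouring genes, 17 of 20 blocks had a median below 0, but the size differed. On the short arm 7 blocks ran from -0.47 to -0.08. The first 3 blocks of the long arm, from SPIDR next to the centromere to JPH1, lay at -0.01, 0.01 and 0.04. The next 6 blocks, from GDAP1 to ASAP1-IT1, lay at -0.98, -0.92, -0.76, -0.79, -0.75 and -0.44. Beyond them the block from EFR3A to PSCA returned to 0.04, the block from LY6K to PYCR3 lay at -0.10, and the last blocks, from GFUS to HSF1 and from DGAT1 to C8orf33 at the chromosome end, lay at -0.39 and -0.43. A stretch of 150 genes in the middle of the long arm therefore stood between neighbours whose medians were near that of all genes.

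**Figure D1:**
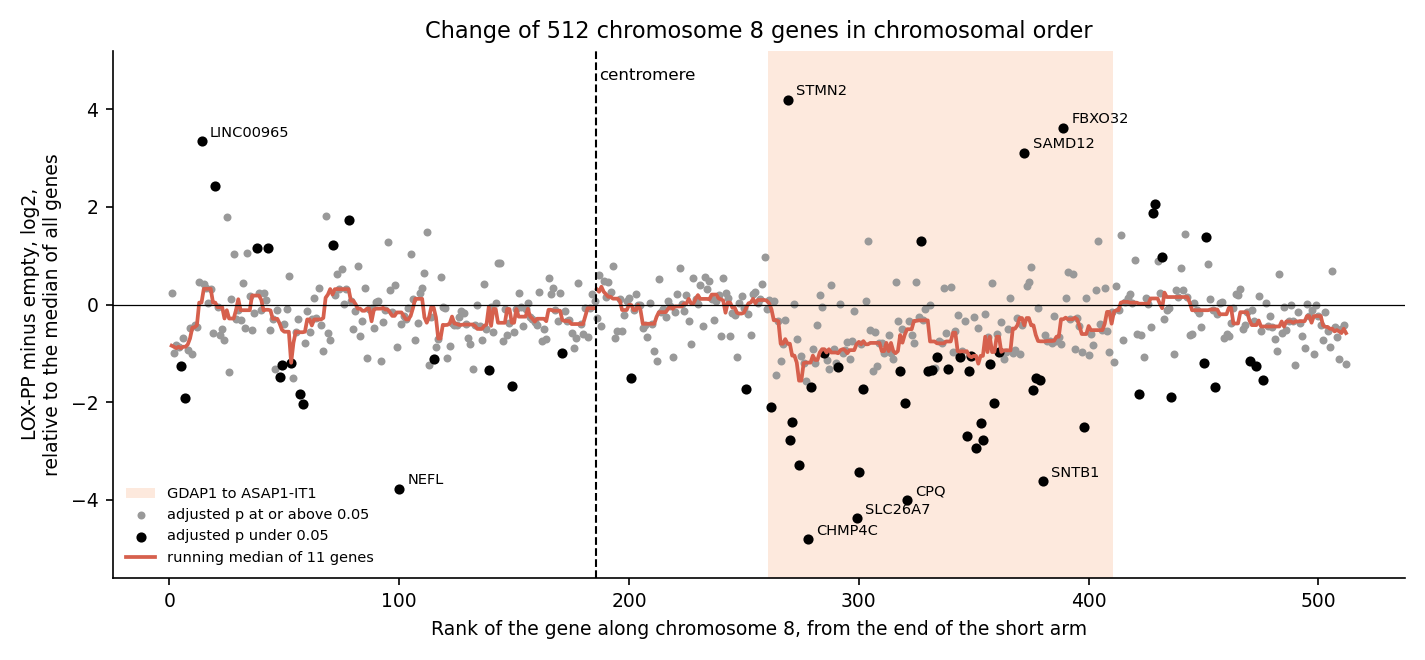
Change of each of the 512 genes (LOX-PP minus empty, log2, relative to the median of all genes) against its rank along chromosome 8, with a running median of 11 genes and black points for genes with an adjusted p under 0.05. The line lies near 0 on the inner long arm, drops within the shaded stretch from GDAP1 to ASAP1-IT1, whose median was -0.76, and returns towards 0 beyond it, and the labelled rises STMN2, FBXO32 and SAMD12 stand inside the stretch.

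These 150 genes, the 6 long arm blocks with the lowest medians, are called the middle long arm here. They were singled out because of their medians, so their change is a description and was given no test. The sixth block, at -0.44, was close to the last block of the arm, at -0.43, so the outer limit is a matter of choice. The median was -0.76, which corresponds to 0.59 of the control level relative to all genes, with quartiles of -1.15 and -0.26. The stretch stood at 0.32, 0.49 and 0.32 in the control group and at -0.47, -0.35 and -0.31 in the LOX-PP group, which leaves a gap of 0.63 between the groups. In each of its 6 blocks the 3 control arrays lay above the 3 LOX-PP arrays. Such a separation was not particular to the stretch, since 13 of all 20 blocks had it. Among them were 5 of 7 on the short arm and 2 of 4 on the outer long arm. In the last 2 blocks of the arm the gaps were 0.22 and 0.25, against 0.21 from ZHX1 to ASAP1-IT1. Without LOX-PP array 1, that is within 1 slide, the median of the stretch was -0.73, and when any other array was left out it stayed between -0.81 and -0.68. The 75 genes of the inner long arm had a median of 0.01, and their arrays overlapped, with 0.01, 0.05 and -0.11 for the controls and -0.06, 0.02 and -0.03 for LOX-PP.

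**Figure D2:**
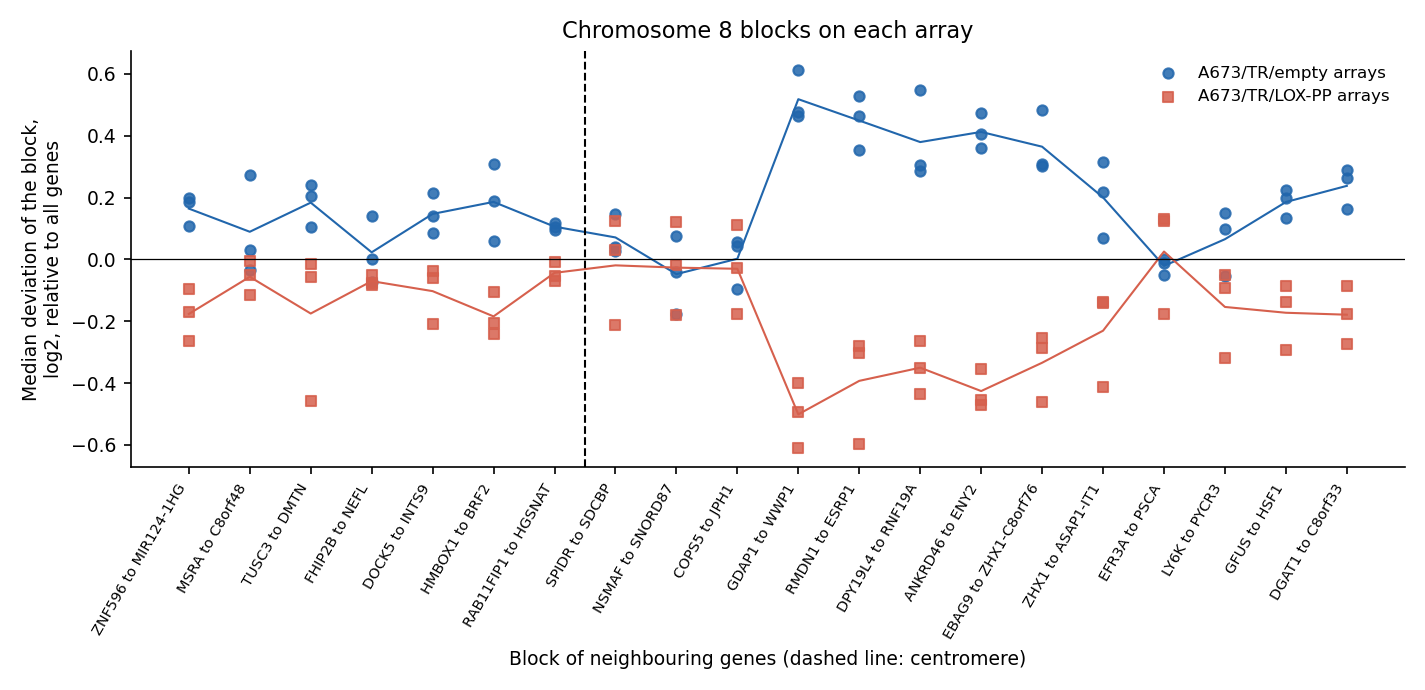
Median deviation of each block of neighbouring genes from the gene means over 6 arrays, log2, relative to the same over all genes, with 1 point per array (circles, A673/TR/empty; squares, A673/TR/LOX-PP) and lines through the group means. The groups stand apart in all 6 blocks from GDAP1 to ASAP1-IT1, and also in 5 of 7 short arm and 2 of 4 outer long arm blocks. They overlap in the others, among them the 3 blocks from SPIDR to JPH1 and the block from EFR3A to PSCA.

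The middle long arm held 29.3% of the chromosome 8 genes and 61.1% of those that fell. In it 33 genes fell and 4 rose, and the groups did not overlap for 89 lower and 7 higher genes. These are shares of 22.0% and 2.67% called and of 59.3% and 4.67% without overlap, set beside 3.37%, 3.7%, 18.2% and 15.4% of all genes, and nothing is read from them because the stretch was chosen by its low medians. On the rest of the chromosome 21 of 362 genes fell and 10 rose, and the median there was -0.16. On the inner long arm only LYN and KCNB2 fell and none rose by limma, where 4 genes were higher and 7 lower at an unadjusted p under 0.05 and the methods' t-test, after adjustment, called none in either direction.

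Bright genes of the stretch were low as well. Among the 75 genes of the stretch that were well above background on all 6 arrays and brighter than the 75th percentile of the array, the median was -0.79, the quartiles were -1.10 and -0.50 and 70 lay below the median of all genes. The 9100 genes of the whole array that met the same conditions had a median of -0.11. The same cut gave -0.42 for 111 short arm genes, -0.01 for 45 inner and -0.43 for 63 outer long arm genes. In the dimmest 50 genes of the stretch the median was -0.27 and 30 lay below that of all genes, against 46 of 50 in each of the brighter parts, with medians of -0.93 and -0.78. Over the array as a whole the dimmest of 10 equal signal classes lay 0.36 higher with LOX-PP, and when each gene was set against the genes of its own class the stretch lay at -0.66 and the inner long arm at 0.03. For 28 genes of the stretch 42 further probes were tested. Their median was -0.49, with 36 of 42 below that of all such probes, against -0.78 for the brightest probes of the same genes. The contrast with the rest of the arm was smaller on such probes. On the inner long arm 19 further probes of 14 genes had a median of -0.32, with 14 below that of all such probes, where the brightest probes of these genes stood at 0.01, and on the outer long arm 26 further probes of 22 genes had one of -0.10 against -0.35.

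**Figure D3:**
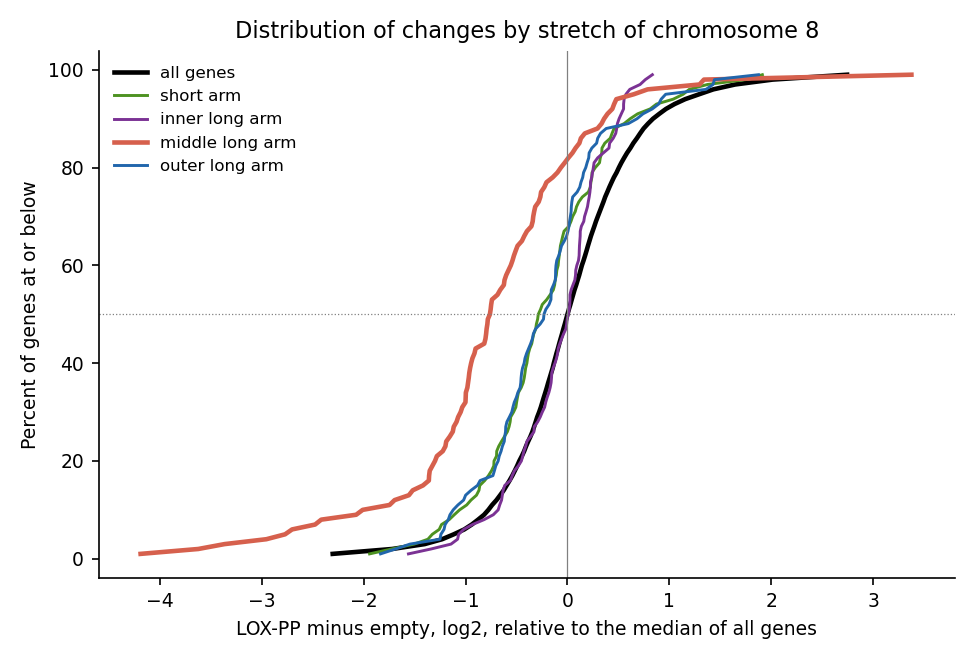
Percent of genes at or below a given change (log2, relative to the median of all genes) for all 16601 genes and for the short arm and the inner, middle and outer long arm. The curve of the inner long arm runs with that of all genes in its lower part, and that of the middle long arm is moved to the left over most of its course, with a median of -0.76.

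At the inner edge of the stretch values near 0 and low values alternated. ELOC, a subunit of ubiquitin ligase and transcription elongation complexes, stood at 0.41, JPH1, which ties the cell membrane to the endoplasmic reticulum, at -0.10 and GDAP1, a mitochondrial outer membrane protein, at 0.09. PI15, a secreted protease inhibitor, fell by 2.11, CRISPLD1 stood at 0.08, ZFHX4, a large homeodomain and zinc finger factor, at -1.45, PEX2, a factor of peroxisome assembly, at -0.34, PKIA, an inhibitor of protein kinase A, at -1.16 and IL7, a cytokine of lymphocytes, at -0.32. The running median of 11 genes went from 0.08 at JPH1 through -0.32 at ZFHX4 to -0.80 at PKIA. At the outer edge ASAP1, a regulator of Arf GTPases, stood at -0.96 and EFR3A, which anchors a lipid kinase at the cell membrane and opens the next block, at -1.17, and the running median reached 0.04 at DNAAF11. The genes at the edges were picked after their values were seen. Of them PI15 had an adjusted p of 0.0145, while those of ZFHX4, PKIA, ASAP1 and EFR3A were 0.112, 0.0575, 0.123 and 0.0814.

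Elsewhere in the genome blocks this low were few. On the other chromosomes, cut into 638 blocks without regard to the centromere, 4 were as low as -0.75, the value of the fifth lowest block of the middle long arm, and all of these lay on chromosome 13. As low as -0.44 were 24 blocks, 11 of them the whole of chromosome 13, 7 on chromosome 11, 3 on chromosome 4, 2 on chromosome 12 and 1 on chromosome 3. On chromosome 13 every block was thus low. Low blocks next to blocks near 0 were not particular to chromosome 8, since on chromosome 11 as well a run of low blocks, down to -0.69, was followed by blocks at about 0.

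**Figure D4:**
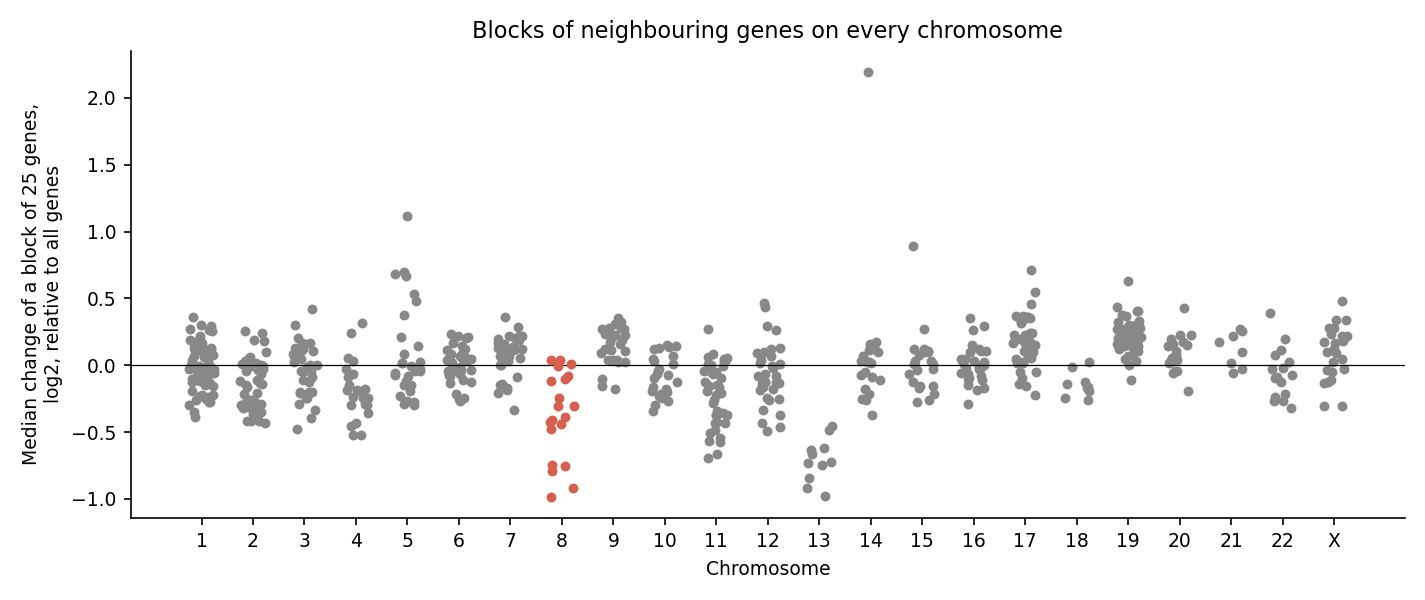
Median change of each block of neighbouring genes (log2, relative to the median of all genes) by chromosome, with chromosome 8 coloured. The 20 blocks of chromosome 8 run from -0.98 to 0.04, and the 11 blocks of chromosome 13 all lie at or below -0.44.

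Of the 8 largest falls 7 lay in the middle long arm, and nothing is read from this because the stretch was chosen by its low medians. The order is that of the measured values, and only 2 of the 8, NEFL and ZFPM2, were well above background on all 6 arrays, against 6 of the 8 largest rises, so that most of these falls have only a lower bound and passed the detection rule mainly through the control group. CHMP4C, a subunit of the ESCRT-III complex that closes off the last bridge between dividing cells, read -2.44, -1.99 and -2.25 in the control group and -8.46, -5.88 and -6.66 in the LOX-PP group. No LOX-PP array measured it well above background, so it was at least 5.82-fold lower, taking for each LOX-PP array the higher of its own value and the lowest signal flagged there (adjusted p = 0.00848, means -2.23 ± 0.23 and -7.00 ± 1.32, SD, n = 3). SLC26A7, an anion transporter, read -2.38, -2.33 and -3.08 against -8.38, -5.86 and -6.57 and by the same rule was at least 4.50-fold lower (adjusted p = 0.0129). The LOX-PP readings of both genes lay below the lowest signals flagged on these arrays, -6.19, -3.70 and -4.43. Their order and their distance from the controls are therefore not measured. Both genes passed the detection rule only through the control group. Their adjusted p-values rest on these readings and are not read as support.

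CPQ, a secreted carboxypeptidase, read -1.25, -1.25 and -1.04 in the control group and -5.00, -4.01 and -6.43 in the LOX-PP group, and only 1 LOX-PP array measured it well above background. By the same rule, applied to the arrays that did not measure it, it was at least 9.13-fold lower (adjusted p = 0.0127). SNTB1, an adapter of the dystrophin complex, read -2.03, -2.05 and -1.73 against -5.52, -5.85 and -5.19 and, again with 1 LOX-PP array above background, was at least 6.10-fold lower (adjusted p = 0.00107). RUNX1T1, a transcriptional corepressor known from a leukemia fusion, was at least 8.01-fold lower (adjusted p = 0.0215), with 2 LOX-PP arrays well above background, and its control array 3, at -1.86, was 1 log2 unit or more below the other 2, which read -0.84 and -0.58. In each of these genes every LOX-PP array lay below every control array, which the rule for naming them required. The adjusted p-values of CPQ and SNTB1 rest mainly on LOX-PP readings not flagged well above background and are not read as support.

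PAG1, a membrane adapter that binds the kinase CSK, read -0.10, -0.38 and -0.09 against -2.67, -4.04 and -3.61 and, with 2 LOX-PP arrays well above background, was at least 8.79-fold lower (adjusted p = 0.00528). Its further probe stood at -4.59 (adjusted p = 0.00363). ZFPM2, a cofactor of GATA factors, read -0.41, -0.42 and -0.48 against -4.05, -2.96 and -3.02 and fell by 2.94 ± 0.33 (log2, SE, adjusted p = 0.00519). The control arrays differed by less than 0.1 log2 units in this gene, and the LOX-PP arrays lay well below them.

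The remaining large fall was on the short arm. NEFL, the light chain of neurofilaments, read 2.92, 3.26 and 3.16 in the control group and -0.69, -0.49 and -0.71 in the LOX-PP group, all well above background, and was 13.7-fold lower (change -3.77 ± 0.21, SE, adjusted p = 0.000465). Its block, from FHIP2B to NEFL, had a median of -0.08, so the gene stood far from its neighbours.

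**Figure D5:**
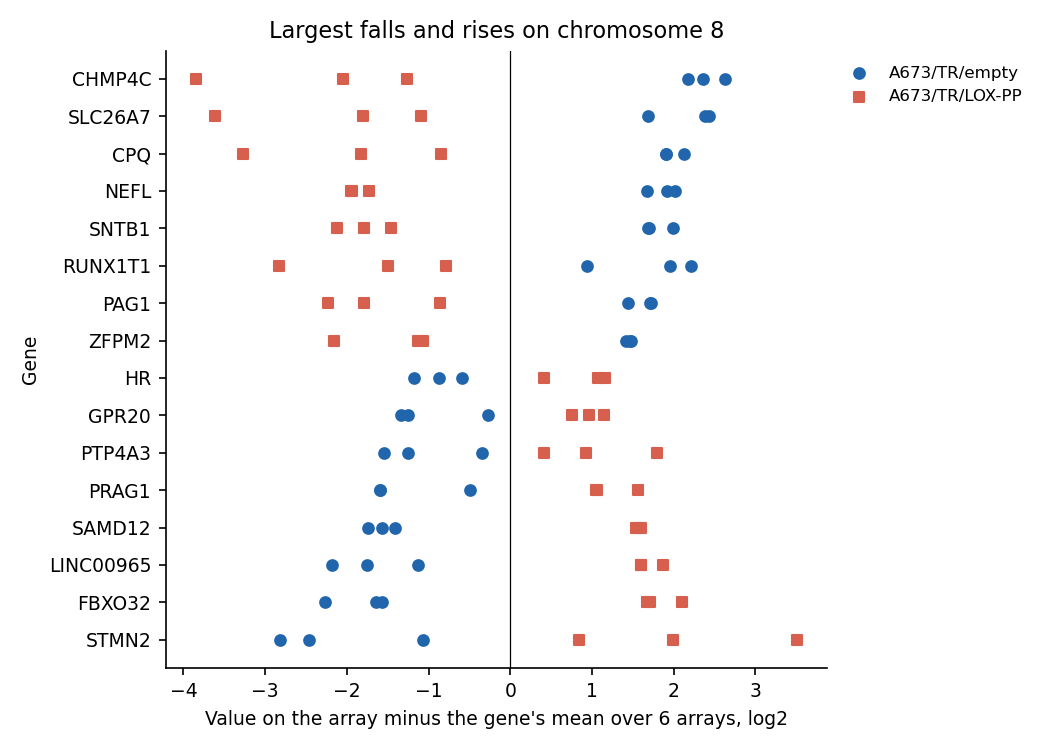
The 8 largest falls and the 8 largest rises among the 68 called genes, with 1 point per array showing the value minus the gene's mean over 6 arrays in log2 (circles, A673/TR/empty; squares, A673/TR/LOX-PP). The groups do not overlap in any of the 16 genes, which their choice required, and in CHMP4C and SLC26A7 the LOX-PP arrays were not well above background.

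Of the 8 largest rises 3 lay inside the middle long arm, among neighbours that were lower. STMN2, a neuronal protein that destabilises microtubules, read -3.60, -3.96 and -2.22 in the control group and 0.85, -0.31 and 2.37 in the LOX-PP group (change 4.20 ± 0.74, adjusted p = 0.0238). Its values varied widely in both groups, and it did not pass the threshold without LOX-PP array 1 or without control array 1 or 2. FBXO32, the substrate-binding subunit of a muscle ubiquitin ligase also called atrogin-1, read -3.57, -2.95 and -2.88 against 0.37, 0.41 and 0.80 and was 12.3-fold higher (adjusted p = 0.00139). SAMD12, a protein with a sterile alpha motif, read -5.94, -5.78 and -6.11 against -2.79, -2.77 and -2.83 (adjusted p = 0.000799), and since only 1 control array measured it well above background, it was at least 5.13-fold higher. The adjusted p of SAMD12 rests mainly on control readings not flagged well above background and is not read as support.

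A smaller rise in the stretch was that of ERICH5, which was 2.47-fold higher (adjusted p = 0.0441). In all, 28 of the 150 genes lay above the median of all genes, and 23 of these were dim or not flagged on every array. The other 5 were PABPC1, which binds the poly(A) tail of mRNA, at 0.33, EIF3H, a subunit of translation initiation factor 3, at 0.13, TRIB1, a pseudokinase of the tribbles family, at 0.29, the pseudogene NACA4P at 0.36 and DECR1, an enzyme of fatty acid oxidation, at 0.01. None of these 5 passed the threshold, with adjusted p-values between 0.412 and 0.966, and they were named after their values were seen. PABPC1 read 5.67, 5.81 and 5.97 in the control group and 6.68, 5.64 and 6.24 in the LOX-PP group, so its groups overlapped.

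Of the largest rises, those outside the stretch were PRAG1, HR and LINC00965 on the short arm and PTP4A3 and GPR20 on the outer long arm. PRAG1, a pseudokinase that binds CSK, read -3.05, -3.05 and -1.94 against 0.12, -0.38 and -0.39 (change 2.42 ± 0.36, adjusted p = 0.0138). HR, a nuclear corepressor with histone demethylase activity, read 0.16, -0.41 and -0.12 against 1.91, 1.84 and 1.18 (change 1.73 ± 0.29, adjusted p = 0.0191), and its further probe rose by 1.17. LINC00965, a long noncoding RNA that 2 control arrays measured well above background, was at least 7.18-fold higher (adjusted p = 0.00259), but its further probe stood at 1.03 (adjusted p = 0.267), and close copies of its sequence may share the probe. All 3 had every LOX-PP array above every control array, as the rule for naming them required.

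PTP4A3, a phosphatase also called PRL-3, read -3.31, -3.61 and -2.40 against -1.65, -1.13 and -0.27 (change 2.06 ± 0.45, adjusted p = 0.0461), with 1.90 for its further probe, and GPR20, an orphan receptor, changed by 1.88 ± 0.33 (adjusted p = 0.0234). Both lie in the block from EFR3A to PSCA, where 3 genes rose and 1, the RNA-binding protein gene KHDRBS3, fell.

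Single arrays decided many of these calls. Of the 29 called genes named by the fixed rule, 10 kept their call whichever array was left out, namely NEFL, SNTB1, PAG1, ZFPM2, FBXO32, LINC00965 and SAMD12 and, described further on, NUDCD1, ANGPT1 and MTSS1. CHMP4C and TPD52 lost it without control array 2, and SLC26A7, CPQ, RUNX1T1, HEY1 and PRAG1 without control array 1 or 2. HR, PTP4A3 and GPR20 also lost it without control array 1 or 2 and without LOX-PP array 2, and the calls of DLC1, ARHGEF10, DCAF13, MTBP, TOP1MT, SLC25A32, LY6K and KCNB2 each depended on 3 or more arrays. Every one of these genes kept its direction. For SNTB1 and SAMD12 only 1 array of the lower group was well above background, so their kept calls are not read as support.

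Read by what their products do, 9 of 10 groups of genes had a median below that of all genes. The groups were put together with earlier results of these data known, and their counts are descriptions beside 3.37% of all genes falling and 3.7% rising. The groups are not separate, since a gene can be counted in more than 1, as ANGPT1, HEY1 and STMN2 are. Where a group is split by the middle long arm, lower values inside follow from how that stretch was chosen, and nothing is read from the split. Of 51 genes of transcription and chromatin, 6 fell, 1 rose and 39 lay below the all-gene median, at a group median of -0.49. The 21 of them in the middle long arm had a median of -0.79 and the rest one of -0.16. HEY1, a repressor downstream of Notch, read -0.86, -0.48 and -0.15 against -2.53, -3.93 and -3.25 and, with 2 LOX-PP arrays well above background, was at least 6.33-fold lower (adjusted p = 0.0126), with ZFPM2 and RUNX1T1 the other large falls. POLR2K, a subunit shared by the RNA polymerases, fell by 1.08 and TAF2, a subunit of TFIID, by 1.76.

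Of 28 genes of translation and RNA processing, 4 fell and none rose, where 9 were lower and none higher at an unadjusted p under 0.05 and the methods' t-test called 1 lower after adjustment. The median of the group was -0.31. NUDCD1, a chaperone-like protein, read 0.06, 0.40 and -0.09 against -2.01, -1.82 and -1.76 and fell by 2.02 ± 0.23 (adjusted p = 0.00544). DCAF13, which acts in ribosome assembly, read 4.39, 4.71 and 4.37 against 3.40, 3.50 and 3.53 and fell by 1.05 ± 0.21 (adjusted p = 0.0395), and its further probe stood at -1.22 (adjusted p = 0.126).

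The 32 genes of replication, repair and cell division had a median of -0.58, and 29 lay below that of all genes. The 10 of them in the middle long arm had a median of -0.92 and the rest one of -0.34. Of these genes 3 passed the threshold, all lower, where 12 were lower and none higher at an unadjusted p under 0.05 and the methods' t-test called 1 after adjustment. They were DSCC1, part of a clamp loader of replication forks, which fell by 1.51, MTBP, a factor in the firing of replication origins, which fell by 1.55 ± 0.25 (adjusted p = 0.0188), and TOP1MT, the mitochondrial topoisomerase, which fell by 1.20 ± 0.21 (adjusted p = 0.027). RAD21, a cohesin subunit named after its values were seen, read 4.47, 4.72 and 4.44 against 3.39, 3.51 and 4.01, lower on all 3 LOX-PP arrays, and had an adjusted p of 0.0898.

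The 26 candidate tumor suppressor genes of the short arm had the lowest median of the groups, -0.64, and 22 lay below that of all genes. ARHGEF10 read 4.05, 4.53 and 3.88 against 2.60, 3.06 and 3.11 (change -1.26 ± 0.27, adjusted p = 0.0486). DLC1 read 1.86, 1.93 and 1.37 against 0.32, 0.62 and 0.62 on its brightest probe (change -1.23 ± 0.24, adjusted p = 0.0385), while its further probe stood at 1.14 (adjusted p = 0.130), so its probes pointed in opposite directions. NRG1, a ligand of the ERBB receptors, also fell, by 1.35. No gene of the group rose by limma, where 1 was higher and 12 lower at an unadjusted p under 0.05 and the methods' t-test called none after adjustment.

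Of 50 genes of growth factors, hormones and signalling, 12 fell and 3 rose, the most calls of any group. Some of these genes are counted in other groups too, and SNTB1 and KCNB2 are among the falls. In the middle long arm lay 17 of the 50. Those 17, in a stretch chosen by its low medians, had a median of -0.96 and the others one of 0.04. ANGPT1, a ligand of the receptor TIE2 in blood vessels, read 0.79, 1.07 and 0.71 against -1.88, -1.13 and -1.62 and was 5.41-fold lower (adjusted p = 0.00496). RSPO2, a secreted enhancer of Wnt signalling, read -2.25, -1.82 and -2.18 against -4.38, -3.88 and -6.18, with 1 LOX-PP array well above background, and was at least 4.24-fold lower (adjusted p = 0.0419). The adjusted p of RSPO2 rests mainly on LOX-PP readings not flagged and is not read as support. STK3, a kinase of the Hippo pathway, fell by 1.35. LYN, a kinase of the SRC family on the inner long arm, read 3.40, 3.29 and 3.53 against 1.58, 2.03 and 2.21 (change -1.50, adjusted p = 0.0198), among neighbours whose median was -0.01.

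Of 32 genes of extracellular matrix, adhesion and secreted factors 6 fell and none rose, where 9 were lower and 3 higher at an unadjusted p under 0.05 and the methods' t-test called 2 lower after adjustment. MTSS1, which bends membranes and binds actin, read 1.33, 1.17 and 0.87 against -1.35, -1.22 and -1.48 and was 5.69-fold lower (adjusted p = 0.00254), and its further probe stood at -1.84 (adjusted p = 0.0123). CTHRC1, a secreted protein of collagen-rich tissue, was at least 3.85-fold lower and SDC2, a heparan sulfate proteoglycan of the cell surface, at least 2.57-fold lower, each with 1 LOX-PP array well above background. The genes of this group in the middle long arm had a median of -0.92, and the others one of -0.13.

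Genes of lipid, steroid and mitochondrial metabolism had a median of -0.34, the same as the chromosome as a whole, and 4 of 47 fell and none rose, where 14 were lower and 1 higher at an unadjusted p under 0.05 and the methods' t-test called none after adjustment. SLC25A32, the mitochondrial folate carrier, read 3.08, 3.57 and 3.24 against 1.99, 1.91 and 2.02 and fell by 1.36 ± 0.22 (adjusted p = 0.0204). Besides it and CPQ, a peptidase whose known role is not one of those in the group's name, these were MTERF3, a regulator of mitochondrial transcription, which fell by 1.36, and OPLAH, an enzyme of glutathione turnover on the outer long arm, which fell by 1.56.

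Of 53 genes of vesicle traffic, lysosome and ubiquitin 7 fell and 2 rose, with a median of -0.54, and 41 lay below that of all genes. TPD52, a protein of vesicle traffic often overexpressed in carcinomas, read -0.59, -0.18 and -0.11 against -3.14, -2.81 and -2.08 and was 5.33-fold lower (adjusted p = 0.0105). WWP1, a ubiquitin ligase, fell by 0.98 and SNX16, a sorting nexin, by 1.69. LAPTM4B, a lysosomal membrane protein named after its values were seen, read 5.60, 5.53 and 5.63 against 4.66, 4.93 and 4.92, below all control arrays, and had an adjusted p of 0.0871.

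The 12 zinc finger genes at the end of the long arm lay low together without single calls, with a median of -0.42 and 11 of 12 below that of all genes. None passed the threshold of limma, where 3 were lower at an unadjusted p under 0.05 and the methods' t-test called none after adjustment. ZNF34 read -0.47, -0.57 and -0.55 against -1.62, -1.33 and -1.17 (change -0.88, adjusted p = 0.0743), and ZNF250 stood at -1.13 (adjusted p = 0.121) with a further probe at -0.24 (adjusted p = 0.661). In the whole last block, from DGAT1 to C8orf33, 25 of 27 genes lay below the median of all genes and 12 were lower with no overlap, while none was called by limma or by the methods' t-test after adjustment and 9 were lower at an unadjusted p under 0.05.

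The 11 measured genes of the defensin and LY6 clusters showed no such shift, with a median of 0.04, and most of the 26 listed genes were not measured. LY6K, a membrane-anchored protein best known from testis and tumors, read 1.18, 2.03 and 1.24 against 0.12, -0.26 and -0.99 and was the only one to fall (change -1.90 ± 0.37, adjusted p = 0.0369). THEM6, a member of the thioesterase superfamily, stood at -1.02 (adjusted p = 0.055).

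The inner long arm, whose block from COPS5 to JPH1 had the highest median on the chromosome at 0.04, still held single genes that differed. KCNB2, a voltage-gated potassium channel, read -2.49, -2.33 and -1.55 against -3.36, -4.32 and -3.76, with 2 LOX-PP arrays well above background, and was at least 2.80-fold lower (adjusted p = 0.0433). LY96, which presents lipopolysaccharide to TLR4, read 2.01, 2.51 and 2.46 against 3.45, 3.47 and 3.07, above all control arrays, with an adjusted p of 0.0657. EYA1, a transcriptional coactivator and phosphatase, stood at -1.06 (adjusted p = 0.173), and its further probe, flagged on 3 arrays, at -3.52 (adjusted p = 0.0133).

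The short arm had a median of -0.29, with 12 genes that fell and 6 that rose among 185, or 6.49% and 3.24% where 3.37% and 3.7% of all genes did. Its arrays stood at 0.14, 0.12 and 0.14 in the control group and at -0.20, -0.08 and -0.06 in the LOX-PP group. Next to NEFL, its largest called falls included MYOM2, a protein of the muscle sarcomere, which read 3.20, 3.00 and 3.16 against 1.16, 1.60 and 0.93 (adjusted p = 0.00856), SLC7A2, a transporter of cationic amino acids, with 2.80 ± 0.10 against 1.01 ± 0.28 (SD, n = 3, adjusted p = 0.0083), and PDGFRL, a receptor-like secreted protein, with a change of -2.03 (adjusted p = 0.0416). GFRA2, a receptor subunit for neurturin, rose by 1.21 from an already bright level. FAM66A and FAM66D, noncoding RNAs of near-identical sequence that their probes may not tell apart, rose by 1.17 and 1.15.

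At the limit of the detection rule the values were weak. Of the members, 437 were well above background on all 6 arrays and 29 on exactly 3, and in 3 of the 512 the flags were those of all control arrays and no LOX-PP array and in 1 the reverse. The brightest members at 3 arrays, SLC35G5 and AARD, read -3.73, -3.94 and -4.32 against -2.08, -3.65 and -4.84, and -3.89, -4.43 and -4.12 against -4.78, -3.77 and -4.62. Just outside, 27 genes were flagged on 2 arrays, the brightest of them GOT1L1, at -4.61, -5.96 and -4.22 against -3.51, -3.54 and -6.07, and FAM167A-AS1, at -4.42, -5.70 and -4.98 against -4.72, -3.98 and -4.21. A gene measured in 1 group only passes the rule more easily when it differs, so the 437 genes flagged everywhere were also taken alone. Their median was -0.34, where that of all genes flagged everywhere was -0.04, and 12.4% of them were called against 5.93% of all genes flagged everywhere. Of the 110 members with more than 1 tested probe, 32 had probes that differed in the sign of their change.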

How the data were processed

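RNA from 3 A673/TR/empty and 3 A673/TR/LOX-PP samples had been hybridised to 1-colour Agilent 60K arrays. The deposited scanner files hold processed spot intensity values made by the authors with Agilent Feature Extraction 10.7, per the file headers with background subtraction and spatial detrending. The deposited value table holds log2 values, which matched log2 of these signals minus the 75th percentile of the array, centred per probe, within 0.02 for 99.9% of probes; its column medians ran from -0.34 to 0.42.

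Outlier spots and control spots were left out, spots of a probe averaged, log2 taken and the array's 75th percentile subtracted. Probes flagged well above background on 3 of 6 arrays were kept (32647 of 50599). Groups were compared with limma 3.58.1 in R 4.3.3 over all kept probes, without covariates, with Benjamini-Hochberg adjustment and a threshold of 0.05. The methods' t-test was run on the same values. Of all probes 55.7% could be named through RefSeq (GRCh38.p14 table), which was used for names, chromosome and order only, since the array design follows another build; the arms were parted at the widest gap without a gene. Sequences are not reported here. The number of arrays limits the precision, and p-values measure the spread between 3 samples a group. On simulated data of 32586 probes, with noise drawn separately for each probe, the test made 0 calls without a change. It recovered 82 of 200 probes changed by 2 and 153 of 200 changed by 3 on the log2 scale, with 7 and 10 wrong calls. Shifts that the probes of an array share were not simulated.

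Members, gene groups and tests were chosen with earlier results of these data known. Named were the 8 largest falls and rises among called genes without overlap, per gene group the 2 with the largest limma statistic, the 3 such genes of the lowest and the highest block, and the brightest genes on each side of the detection limit. Genes named otherwise were chosen after their values were seen, as were the middle long arm and the alternatives for it. Alternatives were quantile scaling, another centre, the authors' values, normexp background correction with an offset of 50, other probe filters, the slide and the replicate number as blocks, the mean of a gene's probes and leaving out each array.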

Additional observations from a re-analysis of the deposited data

How the results depend on the processing

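The direction of all 4 medians (chromosome 8, short arm, long arm, middle long arm) and of the 34 genes named by rule was the same under every alternative run. The medians moved by more than their spread between arrays under quantile scaling (chromosome -0.29, short arm -0.22, middle long arm -0.64), without a filter on dim probes (-0.22, short arm -0.20, long arm -0.25, middle long arm -0.59), within classes of like signal (-0.28, short arm -0.22, long arm -0.32, middle long arm -0.66), for the short arm with normexp (-0.21), and for the further probes of the middle long arm (-0.49). Leaving out 1 array gave -0.37 to -0.29 for the chromosome, -0.29 to -0.24 for the short arm, -0.47 to -0.33 for the long arm and -0.81 to -0.68 for the middle long arm. The 68 called genes became 15 without a filter on dim probes, 19 by the methods' t-test (179 before adjustment, at the methods' threshold) and between 10 and 61 with 1 array left out, where all genes had 272 to 1196 calls against 1174; the cause was not tested. The mean of a gene's probes gave 99. Genes without overlap numbered 212 to 297. With the replicate number as a block 30 genes were called; same-numbered arrays correlated at 0.27, -0.39 and 0.23, so the numbers do not pair the samples. Of the 29 called genes named by rule, 8 kept their call throughout; 20 lost it under the t-test, 19 without control array 2, 17 without control array 1 and 4 with the slide as a block; KCNB2 and PTP4A3 lost it under quantile scaling, KCNB2 with normexp and DLC1 with the mean of its probes. Among the 8 kept calls, those of SNTB1 and SAMD12 had only 1 array of the lower group well above background. Dim probes limit the falls, since the lowest flagged signal lay between -6.19 and -3.70 by array.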
